A study of Homo sapiens with 12 samples.

Results

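The genes described here make sterols and fatty acids or control that synthesis. They are 32 listed genes of the sterol regulatory element binding protein (SREBP) system, of the mevalonate and sterol route and of fatty acid synthesis, and each was read through every array probe set whose single platform gene symbol is its own. By that rule 29 of the 32 genes were measured, with 62 probe sets, among the 19775 genes tested. FDFT1 had no probe set under its own symbol alone, CYP51A1 and FADS1 only probe sets shared with other symbols, and these 3 were not analysed here. The 29 measured genes are 5 regulators, 7 mevalonate and isoprenoid enzymes, 9 sterol enzymes, 7 fatty acid genes and 1 sterol carrier.

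RNA came from MDA-MB-231, a human metastatic breast cancer cell line, on 12 Affymetrix arrays. The Sharp1 cells overexpress Sharp1, also called BHLHE41 or DEC2, a basic helix-loop-helix repressor that binds E-boxes. The shHIF cells were infected with a retroviral construct for small hairpins against HIF1a and HIF2a, the oxygen-regulated alpha subunits of the hypoxia-inducible factors. The control cells carry a retroviral hairpin against GFP. All groups grew untreated in ordinary serum-containing medium. Each group has 4 arrays, lettered A to D, called biological replicates. The labels do not say whether these were separate cultures or infections, so p-values measure the spread between arrays, which may be technical. The sources used here do not give the Sharp1 construct, a matched empty vector or any cloning of the lines. Both comparisons share the same 4 control arrays.

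SREBPs are made as membrane-bound precursors in the endoplasmic reticulum. SCAP carries them to the Golgi for cleavage, and the INSIG proteins hold SCAP back when sterol is plentiful. The released factors bind sterol elements, often beside a CCAAT box bound by NF-Y. SREBF2 products mainly drive the mevalonate and sterol enzymes, SREBF1 products mainly the fatty acid genes, and INSIG1 is itself a target of the pathway. Tumour cells often keep this synthesis active to build membranes.

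Promoter windows of 4 regulators and 1 enzyme are printed because they carry the motifs that these factors and Sharp1 are known to bind, or, for SREBF1, none of those searched. Each is the 250 bases before a gene start in RefSeq on GRCh38.p14, written 5′ to 3′ on the gene's strand. The windows are INSIG1 at chr7:155297628-155297877 on the plus strand, SREBF1 at chr17:17836987-17837236 on the minus strand, SREBF2 at chr22:41832855-41833104 on the plus strand, SCAP at chr3:47475942-47476191 on the minus strand and SC5D at chr11:121292521-121292770 on the plus strand, the first of its 2 windows. Capitals mark an E-box, a CCAAT box in either orientation, or the sterol element TCACNCCAC.
INSIG1: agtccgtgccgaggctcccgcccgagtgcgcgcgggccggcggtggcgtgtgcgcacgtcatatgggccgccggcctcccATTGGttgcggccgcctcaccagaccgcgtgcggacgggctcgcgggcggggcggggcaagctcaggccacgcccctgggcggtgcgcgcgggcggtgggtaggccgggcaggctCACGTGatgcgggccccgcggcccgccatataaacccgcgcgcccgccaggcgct
SREBF1: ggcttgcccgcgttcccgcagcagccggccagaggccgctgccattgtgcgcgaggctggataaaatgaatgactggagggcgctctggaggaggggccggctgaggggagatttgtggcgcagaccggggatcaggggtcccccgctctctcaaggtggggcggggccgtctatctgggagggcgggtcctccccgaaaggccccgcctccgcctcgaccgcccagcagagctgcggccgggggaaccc
SREBF2: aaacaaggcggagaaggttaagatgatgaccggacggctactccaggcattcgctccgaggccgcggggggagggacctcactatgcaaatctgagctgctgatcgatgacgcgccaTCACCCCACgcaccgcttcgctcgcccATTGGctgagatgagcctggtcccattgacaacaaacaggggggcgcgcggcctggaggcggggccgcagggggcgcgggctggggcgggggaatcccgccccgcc
SCAP: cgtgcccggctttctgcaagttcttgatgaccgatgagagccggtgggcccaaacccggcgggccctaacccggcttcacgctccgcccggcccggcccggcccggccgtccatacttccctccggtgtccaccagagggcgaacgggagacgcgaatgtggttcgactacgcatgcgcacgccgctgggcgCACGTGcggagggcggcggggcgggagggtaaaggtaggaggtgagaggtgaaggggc
SC5D: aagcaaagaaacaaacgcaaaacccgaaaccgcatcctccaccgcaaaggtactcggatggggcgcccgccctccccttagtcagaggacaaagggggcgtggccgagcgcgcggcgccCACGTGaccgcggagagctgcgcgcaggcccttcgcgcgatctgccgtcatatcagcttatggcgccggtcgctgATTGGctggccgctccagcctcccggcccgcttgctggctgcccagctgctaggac

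Of the 32 listed genes, 28 matched a promoter entry. Both strands were searched for exact letters, and a match is a description of the sequence. The E-box CACGTG stood in 3 of the 28, INSIG1, SCAP and SC5D, against 7.73% of the 27305 genes in the table. The sterol element stood in 1 of the 28, SREBF2, against 1.09% of all genes, and CCAAT in 19 of the 28 against 37% of all genes. The hypoxia element cores ACGTG, which lies inside CACGTG, and GCGTG stood in 8 and 24 of the 28, against 21.7% and 36.2% of all genes. No window shows whether a factor was bound in these cells.

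The values are deposited log2 RMA expression values, so a difference of 1 is a 2-fold change. The brightest probe set by mean over all arrays stands for its gene, and levels of different genes cannot be compared on this scale. A gene was called higher or lower where limma's Benjamini-Hochberg adjusted p over all 19775 genes was under 0.05. The array medians lay between 5.39 and 5.44, and all 29 genes averaged above the median probe set, between 6.35 for MVD and 11.86 for SCD. In bulk RNA a change in every cell and a change in some cells cannot be told apart.

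The perturbed genes were checked first. Sharp1 has 4 probe sets, and they disagree. The brightest by mean over all arrays gave a log2 change of -2.06 in Sharp1 against control. Another, the brightest within the Sharp1 arrays, averaged 9.24 in Sharp1 arrays and 3.89 in control arrays, a change of 5.35. The remaining probe sets gave 1.59, called, and -0.125 (limma adjusted p = 0.442, not called). EPAS1, which encodes HIF2a, was -2.85 in shHIF and -0.71 in Sharp1 against control on its brightest probe set. Its other probe sets, averaging 3.99 and 3.22 in control arrays, gave -0.12 and 0.11 in shHIF and 0.01 and 0.10 in Sharp1, none called. HIF1A was -0.73 in shHIF and 0.09 in Sharp1 (limma adjusted p = 0.0836, not called). VIM, CD44, AXL and CAV1 averaged at least 12.30 and SPARC 3.87, while 3 of 5 luminal markers, 4 of 5 adipocyte markers, both leukocyte markers measured and 2 of 3 fibroblast markers lay below the median probe set of 5.41. Of the luminal markers, ESR1 averaged 6.34 and GATA3 8.61. The adipocyte markers' summed linear signal was 184.6 to 201.8 in Sharp1, 171.1 to 185.2 in shHIF and 160.3 to 167.9 in control arrays. ADIPOQ averaged a log2 value of 3.01, FABP4 4.27 and CIDEC 6.49. Against control, CIDEC was 0.37 in Sharp1 and 0.25 in shHIF, and FABP4 0.48 in Sharp1, all called. FABP4 in shHIF (-0.075) and ADIPOQ, PLIN1 and LEP in either line were not called. The luminal sums were 451.6 to 496.3 in Sharp1, 561 to 605.4 in shHIF and 499.1 to 519.7 in control arrays, and those of the 5 line markers 49060 to 50900 in Sharp1, 39350 to 41120 in shHIF and 44770 to 46140 in control arrays. The leukocyte sums were 51.31 to 59.21 in Sharp1, 50 to 57.21 in shHIF and 47.11 to 50.09 in control arrays, and the fibroblast sums 61.21 to 76.64 in Sharp1, 73.05 to 82.76 in shHIF and 58.8 to 72.89 in control arrays. The part of these markers in the results was not tested. Array Sharp1 B had an 18S rRNA signal of 12.16 against 13.14 to 13.46 on the others, and shHIF A and D had hybridization spikes of 9.99 and 10.02 against 10.43 to 10.57.

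Among the 5 regulators, INSIG1 and SREBF1 fell in both perturbed lines, INSIG2 fell in shHIF cells, SCAP fell in Sharp1 and rose in shHIF cells, and SREBF2 was not called in either. INSIG1, the sterol-sensing anchor that retains SCAP, read 8.59, 8.66, 8.56 and 8.78 in Sharp1 arrays A to D, 8.76, 8.56, 8.58 and 8.51 in shHIF arrays and 10.11, 10.17, 9.96 and 9.98 in control arrays. Every Sharp1 and shHIF array lay below every control array. Against control INSIG1 was -1.41 in Sharp1 (SE 0.06, limma adjusted p = 4.19e-15), leaving 37.7% of the control signal, and -1.45 in shHIF (SE 0.06, limma adjusted p = 7.48e-15), leaving 36.5%. Among 19775 genes, its change ranked 95 from the lowest in Sharp1 and 12 from the lowest in shHIF. Between the perturbed lines the difference was 0.05 (95% interval -0.08 to 0.18), which was not called. Intervals here and below are not adjusted for the number of genes.

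SREBF1, the precursor gene whose products drive fatty acid synthesis, was also lower in both lines. It read 8.59, 8.59, 8.72 and 8.68 in Sharp1 arrays, 8.46, 8.59, 8.54 and 8.56 in shHIF arrays and 9.31, 9.22, 9.23 and 9.15 in control arrays. No Sharp1 or shHIF array reached the lowest control array. Its change from control was -0.58 in Sharp1 (limma adjusted p = 3.05e-09) and -0.69 in shHIF (limma adjusted p = 2.78e-10). Its second, dimmer probe set, averaging 6.19, gave -0.08 and 0.05 and was not called, and the mean of both probe sets gave -0.33 and -0.32. SREBF2, the paralogue that mainly drives sterol enzymes, read 8.19, 8.11, 8.34 and 8.42 in Sharp1 arrays, 8.28, 8.19, 8.09 and 8.23 in shHIF arrays and 8.26, 8.05, 8.30 and 8.21 in control arrays. These values overlap throughout, and the changes were 0.06 (95% interval -0.09 to 0.21) in Sharp1 and -0.0069 (95% interval -0.15 to 0.14) in shHIF, neither called. Its 2 other probe sets were not called either.

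SCAP and INSIG2 differed between the perturbed lines. SCAP, the escort of the SREBP precursors, read 8.50, 8.68, 8.60 and 8.57 in Sharp1 arrays, 9.33, 9.34, 9.22 and 9.45 in shHIF arrays and 9.10, 9.09, 9.12 and 9.13 in control arrays. The 3 groups did not overlap, with Sharp1 lowest and shHIF highest. SCAP fell in Sharp1, -0.53 (limma adjusted p = 2.22e-08), and rose in shHIF, 0.23 (limma adjusted p = 0.00192), and Sharp1 was -0.75 against shHIF (limma adjusted p = 2.09e-11). INSIG2, the second SCAP anchor and known as a target of HIF in mouse liver, read 8.99, 9.00, 8.97 and 9.02 in Sharp1 arrays, 8.52, 8.62, 8.59 and 8.54 in shHIF arrays and 9.07, 9.12, 9.12 and 9.06 in control arrays. It was -0.52 in shHIF (limma adjusted p = 4.49e-09), leaving 69.5% of the control signal. In Sharp1 its change was -0.10 (95% interval -0.20 to 0.0013, limma adjusted p = 0.152), not called although no Sharp1 array reached a control array. Sharp1 exceeded shHIF by 0.43 (limma adjusted p = 5.77e-08).

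**Figure D1:**
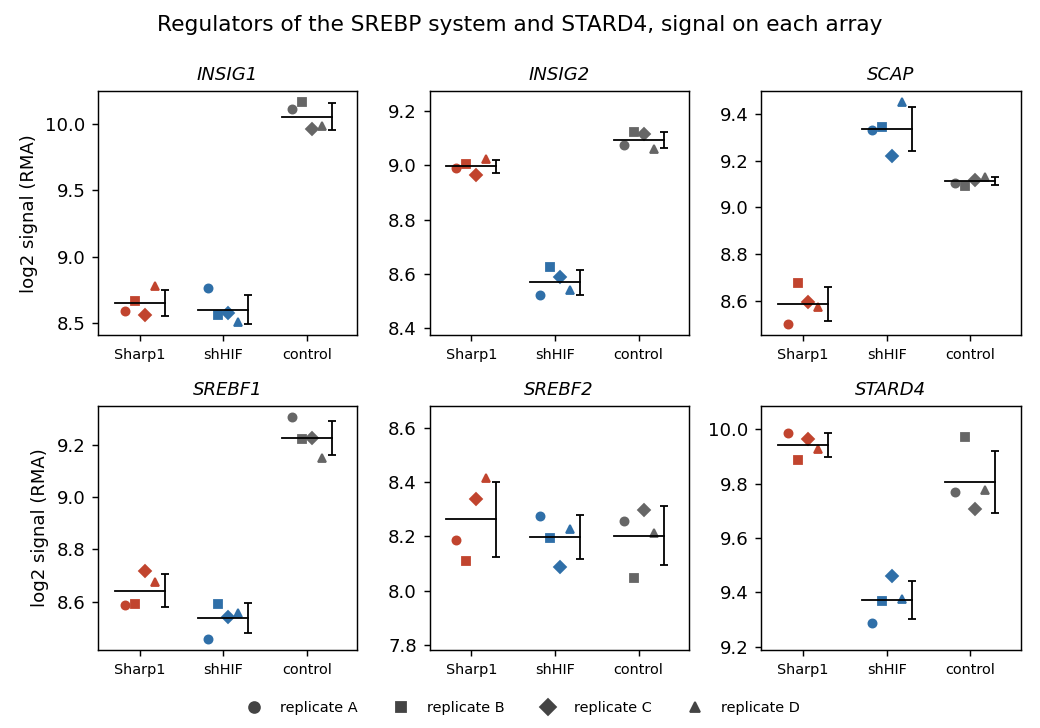
Log2 expression on each array of INSIG1, INSIG2, SCAP, SREBF1, SREBF2 and STARD4 in Sharp1, shHIF and control cells, with 1 point per array, a line at the group mean and a bar of 1 SD (n = 4). INSIG1 and SREBF1 are low in both perturbed lines, SCAP is low in Sharp1 and high in shHIF, INSIG2 and STARD4 are low in shHIF, and SREBF2 overlaps.

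In Sharp1 cells the enzymes did not move in 1 direction. Of 23 enzymes, 9 were higher than in control cells, 5 were lower and 9 were not called, with a median log2 change of 0.10 and a range from -0.75 to 0.54. Of the 16 measured enzymes of the cholesterol route 7 were higher and 2 lower, and of the 7 fatty acid genes 2 were higher and 3 lower. ELOVL6 and SCD, which lengthen and desaturate fatty acids, fell most. Over all 29 genes, 9 were higher and 8 lower, beside 15.3% and 11.8% of all genes tested. That is 58.6% called in either direction against 27.2% of all genes, and the groups were wholly apart for 8 genes upward and 8 downward, beside 28.9% of all genes in either direction. The 29 genes were chosen with earlier results of these data known, and all but MVD averaged above the median gene of 6.59. The shares here and below are therefore a description and not a test of these genes against all genes. The median change over the 29 genes was 0.07, and over all genes -0.0018.

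The cytosolic thiolase ACAT2, which joins acetyl-CoA units at the head of the mevalonate route, showed the highest rise. It read 11.70, 11.65, 11.78 and 11.62 in Sharp1 arrays against 11.18, 11.11, 11.16 and 11.13 in control arrays. Every Sharp1 array lay above every control array, and the change was 0.54 (SE 0.04, limma adjusted p = 3.05e-11), a 1.46-fold level. IDI1, the isopentenyl diphosphate isomerase, was 0.11 (limma adjusted p = 0.0416) and FDPS, the farnesyl diphosphate synthase, 0.10 (limma adjusted p = 0.0423). Both calls were lost in 10 and 9 of 21 alternatives, among them leaving out any 1 Sharp1 array. HMGCS1, which makes HMG-CoA, was 0.08 (95% interval -0.05 to 0.22), the kinases MVK and PMVK -0.07 and 0.18, and the decarboxylase MVD 0.14, none called.

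Among the sterol enzymes, MSMO1, the sterol methyl oxidase, read 11.46, 11.35, 11.31 and 11.44 in Sharp1 arrays against 10.98, 11.00, 11.00 and 10.90 in control arrays. TM7SF2, a sterol reductase, read 7.25, 7.16, 7.39 and 7.19 in Sharp1 arrays against 6.82, 6.79, 6.90 and 6.87 in control arrays. For both, the lowest Sharp1 array exceeded the highest control array, with changes of 0.42 (limma adjusted p = 4.00e-07) for MSMO1 and 0.40 (limma adjusted p = 0.000103) for TM7SF2. SC5D, the sterol desaturase whose promoter is printed above, read 9.58, 9.52, 9.54 and 9.62 in Sharp1 arrays against 9.43, 9.44, 9.31 and 9.41 in control arrays, 0.17 (limma adjusted p = 0.00797). Its call was lost with the mean of its probe sets, 1 of which averaged 3.23. LSS, the synthase that closes the sterol rings, moved the other way. It read 9.18, 9.25, 9.17 and 9.04 in Sharp1 arrays against 9.67, 9.52, 9.57 and 9.73 in control arrays, -0.46 (limma adjusted p = 1.72e-07), with no overlap. EBP, a sterol isomerase, read 9.93, 10.12, 10.06 and 10.00 in Sharp1 arrays against 10.15, 10.12, 10.14 and 10.24 in control arrays, -0.14 (limma adjusted p = 0.0278), and overlapped. DHCR7, a late sterol reductase, was 0.16 (limma adjusted p = 0.0128), while SQLE, the squalene epoxidase, was -0.01, NSDHL 0.12 and HSD17B7 0.07, none of these 3 called.

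The fatty acid genes split. ELOVL6, the elongase of saturated fatty acids, read 9.57, 9.63, 9.70 and 9.61 in Sharp1 arrays against 10.34, 10.36, 10.37 and 10.44 in control arrays. SCD, the desaturase that makes monounsaturated fatty acids, read 11.46, 11.60, 11.57 and 11.61 in Sharp1 arrays against 12.20, 12.13, 12.16 and 12.19 in control arrays. Both were wholly below control, -0.75 (limma adjusted p = 3.84e-11, 59.4% of the control signal) for ELOVL6 and -0.61 (limma adjusted p = 1.59e-11, 65.6%) for SCD. ACACA, the acetyl-CoA carboxylase that makes malonyl-CoA, read 9.74, 9.79, 9.83 and 9.79 in Sharp1 arrays against 9.92, 9.93, 9.92 and 9.94 in control arrays, -0.14 (limma adjusted p = 0.0154). AACS, which activates acetoacetate for lipid synthesis, read 9.05, 9.24, 9.16 and 9.19 in Sharp1 arrays against 8.87, 8.71, 8.65 and 8.85 in control arrays, 0.39 (limma adjusted p = 1.57e-05), and was wholly above. ACLY, which releases cytosolic acetyl-CoA from citrate, was 0.14 (limma adjusted p = 0.00546), FASN, the fatty acid synthase, -0.20 (95% interval -0.35 to -0.04, not called, and -0.09 without array Sharp1 B) and FADS2, a desaturase of polyunsaturated fatty acids, -0.08, not called. STARD4, a carrier of sterol between membranes, was 0.14 (95% interval 0.03 to 0.25, not called). Without array Sharp1 A, ACACA was not called (limma adjusted p = 0.0582), nor was EBP, and the lower enzymes numbered 3. EBP also lost its call without Sharp1 D, control A or control D, and DHCR7 without Sharp1 D, control A or control C.

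**Figure D2:**
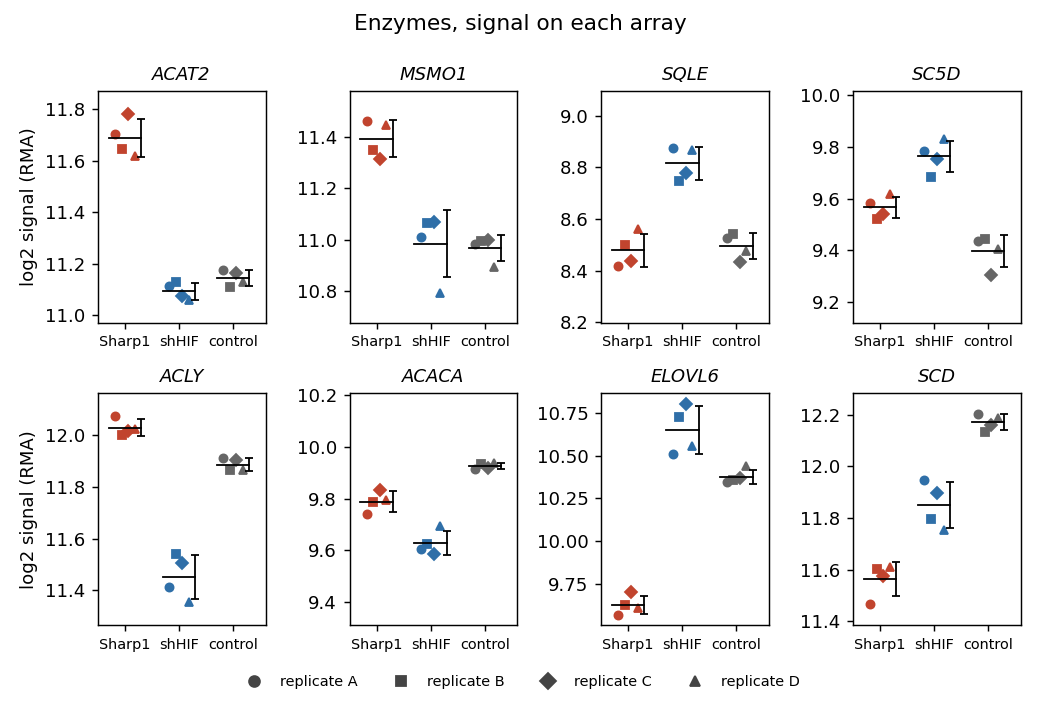
Log2 expression on each array of ACAT2, MSMO1, SQLE, SC5D, ACLY, ACACA, ELOVL6 and SCD in Sharp1, shHIF and control cells, with 1 point per array, a line at the group mean and a bar of 1 SD (n = 4). ACAT2 and MSMO1 are high in Sharp1, SQLE and SC5D highest in shHIF, ACLY lowest in shHIF, and ELOVL6 lowest in Sharp1.

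In shHIF cells the enzymes were again split. Of 23 enzymes, 7 were higher, 5 lower and 11 not called, with a median change of 0.02 and a range from -0.43 to 0.37. SC5D, HMGCS1, SQLE and DHCR7 rose, and ACLY, SCD and ACACA fell. Over all 29 genes, 8 were higher and 9 lower, beside 17.6% and 13.2% of all genes tested. That is 58.6% called in either direction against 30.8% of all genes, and the groups were wholly apart for 8 genes upward and 8 downward, beside 28.6% of all genes in either direction. The median change over the 29 genes was -0.01, and over all genes 0.05.

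SC5D read 9.78, 9.69, 9.75 and 9.83 in shHIF arrays, wholly above the control values given above, with a change of 0.37 (SE 0.05, limma adjusted p = 1.15e-06). SQLE read 8.87, 8.75, 8.78 and 8.87 in shHIF arrays against 8.53, 8.54, 8.43 and 8.47 in control arrays, 0.32 (limma adjusted p = 4.29e-05). HMGCS1 read 8.69, 8.91, 8.86 and 8.61 in shHIF arrays against 8.47, 8.44, 8.35 and 8.49 in control arrays, 0.33 (limma adjusted p = 0.000298). For these genes no shHIF array fell to a control array. DHCR7 read 9.60, 9.70, 9.64 and 9.72 in shHIF arrays against 9.31, 9.39, 9.28 and 9.44 in control arrays, 0.31 (limma adjusted p = 1.84e-05). AACS read 9.03, 9.24, 9.09 and 9.02 in shHIF arrays, wholly above control as in Sharp1, 0.33 (limma adjusted p = 0.000147). Both were above control on every array. EBP was 0.16 (limma adjusted p = 0.0102), LSS -0.16 (limma adjusted p = 0.0266, with arrays 9.44, 9.50, 9.50 and 9.42) and IDI1 -0.11 (limma adjusted p = 0.0435). IDI1 read 10.80, 10.72, 10.71 and 10.83 in shHIF arrays against 10.87, 10.93, 10.86 and 10.82 in control arrays and overlapped by 1 pair of arrays. ACAT2 was -0.05 (95% interval -0.13 to 0.03), MSMO1 0.02 (95% interval -0.09 to 0.12) and TM7SF2 0.08 (95% interval -0.07 to 0.23), not called. FDPS (-0.08), MVK (-0.02), PMVK (0.04), MVD (0.13), NSDHL (0.07) and HSD17B7 (-0.07) were not called either. Without control array A, LSS and IDI1 were not called and the lower enzymes numbered 3. LSS also lost its call without shHIF A, shHIF D or control D, and IDI1 in 13 of 21 alternatives.

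ACLY showed the lowest change among the shHIF enzymes. It read 11.41, 11.54, 11.51 and 11.35 in shHIF arrays against 11.91, 11.86, 11.90 and 11.87 in control arrays, -0.43 (limma adjusted p = 2.86e-09), leaving 74.0% of the control signal. SCD read 11.95, 11.80, 11.90 and 11.75 in shHIF arrays, wholly below control, -0.32 (limma adjusted p = 1.19e-06, 79.9%). ACACA read 9.61, 9.62, 9.58 and 9.69 in shHIF arrays, also wholly below control, -0.30 (limma adjusted p = 4.14e-06). On their brightest probe sets, all 3 were lower than control on every array. ELOVL6 instead read 10.51, 10.73, 10.81 and 10.56 in shHIF arrays, wholly above control, 0.27 (limma adjusted p = 0.000305). FASN was 0.01 (95% interval -0.15 to 0.17) and FADS2 -0.04 (95% interval -0.15 to 0.08), not called. STARD4 read 9.29, 9.37, 9.46 and 9.37 in shHIF arrays against 9.77, 9.97, 9.71 and 9.78 in control arrays, with Sharp1 at 9.99, 9.89, 9.97 and 9.93, and fell in shHIF, -0.43 (limma adjusted p = 5.52e-07). The actin 3′ minus 5′ difference, a sign of RNA quality, was 0.90 to 0.94 on shHIF A, B and C and 0.62 on D. It was 0.59 to 0.74 on control arrays, and 0.61, 0.56, 0.85 and 0.68 on Sharp1 arrays A to D. Its part in the changes of either line was not tested.

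**Figure D3:**
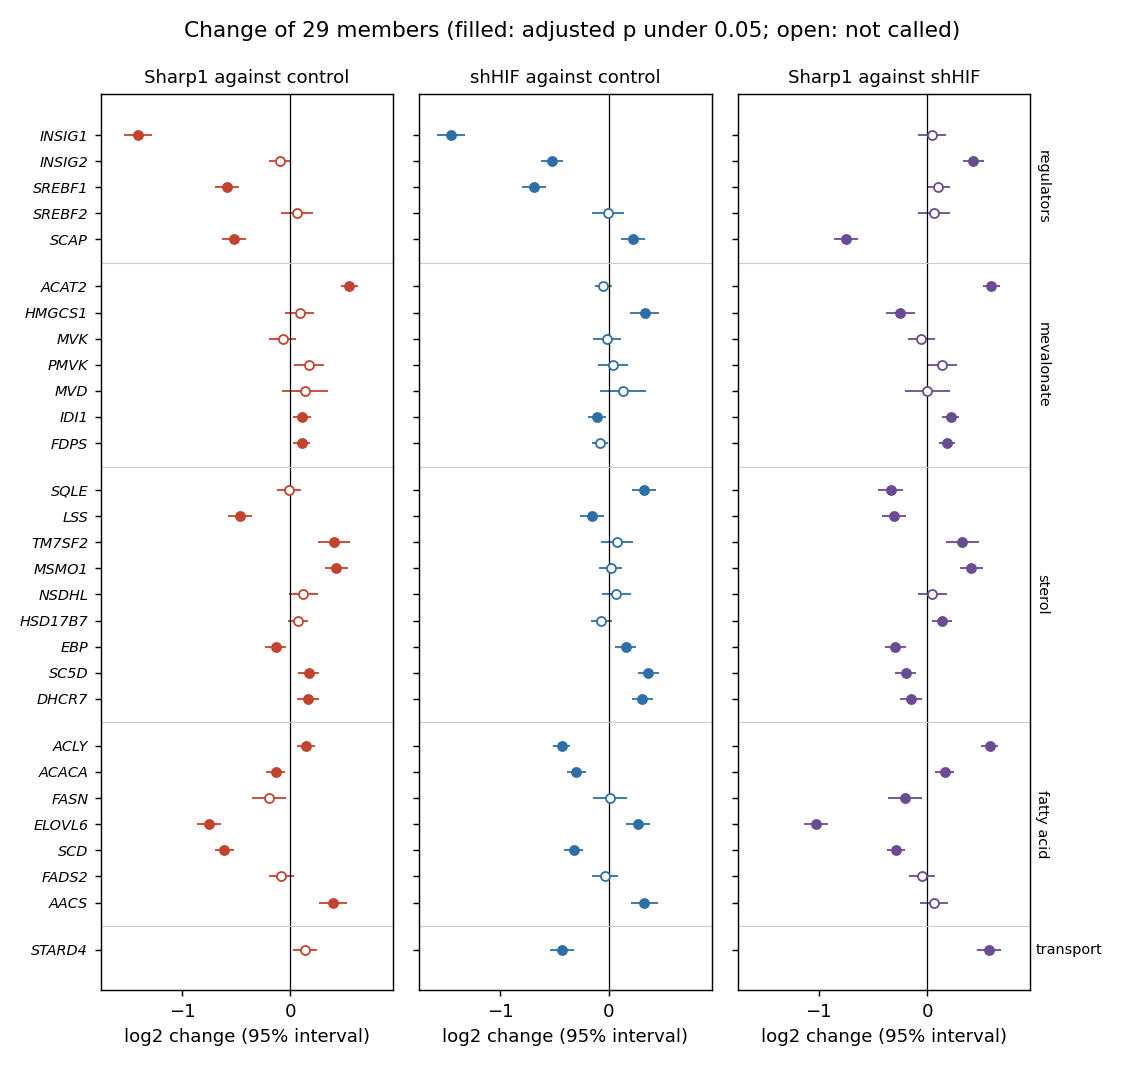
Log2 change of the 29 measured genes, grouped by role, in each of the 3 comparisons (2 with control and the direct one), as a point with its 95% interval, filled where the limma adjusted p was under 0.05. INSIG1 lies far below 0 in both comparisons with control and near 0 in the direct one, and ELOVL6 lies furthest below 0 in the direct one at -1.02.

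Set against each other, Sharp1 and shHIF cells differed in most of these genes. Sharp1 was higher in 10 and lower in 10 of the 29 genes, beside 18.0% and 20.4% of all genes tested, and 69% were called in either direction against 38.4% of all genes. Among enzymes 8 were higher and 9 lower. On the brightest probe sets ELOVL6 differed most, -1.02 (SE 0.05, limma adjusted p = 6.78e-14), leaving 49.2% of the shHIF signal in Sharp1. Its other probe sets gave -1.05, called, and -0.19, not called. SCD's 4 probe sets gave -0.29, -0.59, -1.27 and -1.17, all called. With the mean of a gene's probe sets, SCD was -0.83 and ELOVL6 -0.75. ACAT2 was 0.59 higher in Sharp1 (limma adjusted p = 3.53e-12), ACLY 0.58 (limma adjusted p = 5.40e-12), STARD4 0.57 (limma adjusted p = 2.77e-09) and MSMO1 0.41 (limma adjusted p = 4.20e-07). TM7SF2 (0.33), IDI1 (0.22), FDPS (0.18), ACACA (0.16) and HSD17B7 (0.14) were also higher in Sharp1, though IDI1 was 0.10 and not called with the mean of its probe sets (limma adjusted p = 0.0731). SQLE (-0.34), LSS (-0.31), EBP (-0.29), SCD (-0.29), HMGCS1 (-0.25), FASN (-0.21), SC5D (-0.20) and DHCR7 (-0.15) were lower in Sharp1. AACS, which was called higher against control in both lines, differed by 0.06 (95% interval -0.06 to 0.19, not called). FASN lost its call in 10 of 21 alternatives, among them the mean of its probe sets and leaving out Sharp1 B, shHIF B or shHIF D. DHCR7 lost its call in 4, among them without Sharp1 B or shHIF D, and HSD17B7 in 2, among them without Sharp1 C.

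Of the 29 genes, 18 have more than 1 probe set. Of all 62 probe sets, in a fit over 54613, 8 were higher and 17 lower in Sharp1 (all probe sets 9.82% and 8.26%), 15 higher and 14 lower in shHIF (10.7% and 11.5%), and 13 higher and 22 lower in Sharp1 against shHIF (15.3% and 13.8%). INSIG1's 3 probe sets gave -1.41, -1.43 and -1.39 in Sharp1 and -1.45, -1.26 and -0.65 in shHIF, all called. The last, averaging 7.47, was lower in Sharp1 than in shHIF by a log2 change of -0.74 (limma adjusted p = 7.86e-07) and was not called between the lines on the other 2. The mean of the 3 gave -0.29 in Sharp1 against shHIF (limma adjusted p = 0.000679), where the brightest probe set alone was not called. SCD's 4 gave -0.61, -0.86, -1.15 and -1.09 in Sharp1, all called, and -0.32 and -0.27 in shHIF, called, with 0.13 and 0.08 not called. Their mean gave -0.93 in Sharp1. On the probe sets at -1.15 and -1.09, array Sharp1 B read 6.49 and 6.67. The other Sharp1 arrays read 7.57 to 7.82 and 7.29 to 7.66 there. ACLY's 3 were called in shHIF at -0.43, -0.42 and -0.30, while in Sharp1 their mean of 0.09 was not called (limma adjusted p = 0.102). HMGCS1's 2 were called in shHIF at 0.33 and 0.36.

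Some probe sets of 1 gene opposed each other. ELOVL6 gave -0.75, -0.80 and -0.76 in Sharp1, but 0.27, 0.25 and -0.57 in shHIF, all called, so the mean of its probe sets in shHIF was -0.02 (limma adjusted p = 0.867). ACACA gave -0.14 and -0.31 in Sharp1, with a mean of -0.23, and -0.30 and 0.26 in shHIF. The mean of its probe sets turned Sharp1 against shHIF to -0.21 (limma adjusted p = 0.0038). IDI1 gave 0.22, 0.29 and -0.25 in Sharp1 against shHIF, all called, and 0.14 on its dimmest probe set, not called. In Sharp1 against control these IDI1 probe sets gave 0.11, 0.23, -0.05 and -0.02, in the same order. Only the one at 0.23 was called in the fit over all probe sets. In shHIF LSS gave -0.16 on its brightest probe set and 0.36 on 1 that averaged 5.07, and its mean there was 0.06 (limma adjusted p = 0.557). SQLE's 2 brightest gave 0.32 and 0.39 in shHIF, while the other 2, both below the median probe set, were not called. With the mean of the probe sets, the shHIF calls of SQLE, SC5D, SCD, EBP, ACACA and IDI1 were lost, as were the Sharp1 calls of IDI1, EBP, SC5D and DHCR7. The brightest probe sets of IDI1 and HSD17B7 are of the kind that can bind related transcripts, so their values are uncertain.

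**Figure D4:**
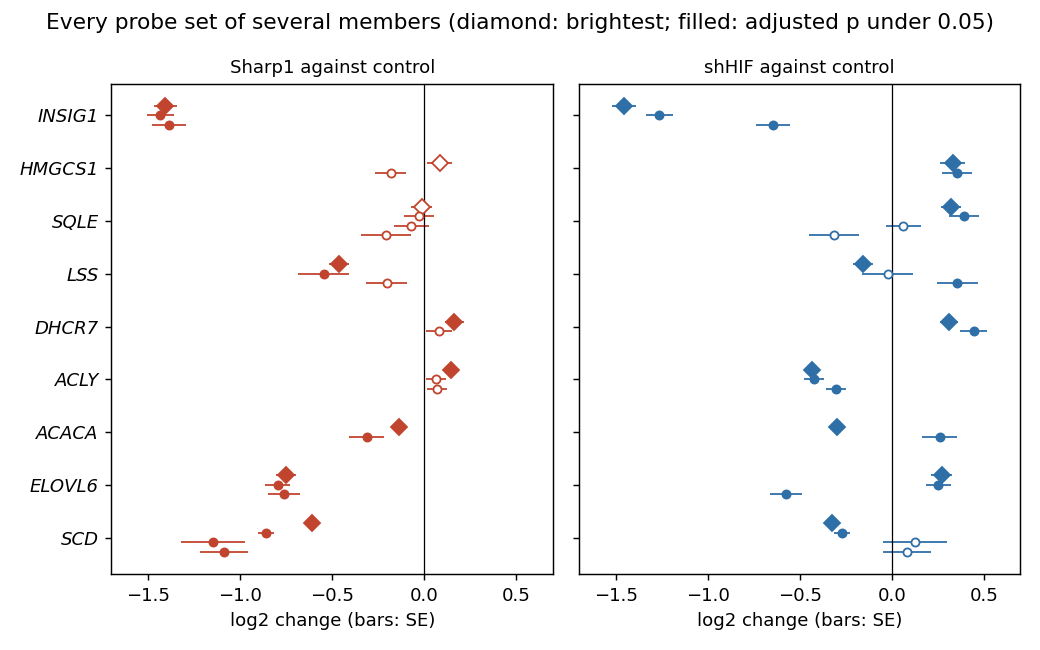
Log2 change with its SE for every probe set of INSIG1, HMGCS1, SQLE, LSS, DHCR7, ACLY, ACACA, ELOVL6 and SCD in Sharp1 and shHIF against control, with a diamond for the brightest probe set and filled marks where called. INSIG1 probe sets lie below 0 throughout, while those of ELOVL6 and ACACA lie on both sides of 0 in shHIF.

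Across the 12 arrays, the genes whose log2 values were most like INSIG1 by Pearson's r were RYBP (0.992), NUP58 (0.977), COL12A1 (0.976), LDHA (0.975) and CAPN2 (0.974). The 12 arrays are 3 groups of 4. INSIG1 had SDs of 0.10 to 0.11 within groups, against changes from control of -1.41 in Sharp1 and -1.45 in shHIF. A high r therefore mostly reflects differences between groups, and it is given as a description. Among the 29 genes SREBF1 was most like INSIG1 (0.967), followed by SCD (0.856) and ACACA (0.814), and AACS was least like it (-0.872).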

How the data were processed

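RNA of 12 MDA-MB-231 samples, 4 per group, was read on Affymetrix arrays. The authors deposited log2 values from RMA, per the submitters' processing notes. Its version is not stated in the sources used here. Array signals have no count depth, and the number of arrays limits precision. Of 54675 probe sets, 62 are controls, 41091 have 1 gene symbol in the platform annotation (41037 matched by gene ID to the RefSeq gene table of GRCh38.p14), 1801 have several and 11721 are not named here. For each of 19775 genes the brightest probe set by mean over all arrays was used.

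With no further normalization, limma 3.58.1 in R 4.3.3 fitted a mean per group to all 12 arrays, with a trend in eBayes and Benjamini-Hochberg adjustment over all genes, and separately over all 54613 probe sets. The script was tested on simulated data. Alternatives were the mean of a gene's probe sets, array centring, leaving out dim genes, fits of 2 groups only, array weights, no trend, the replicate letter as a block and leaving out arrays. Same-letter arrays' deviations from their group means correlated between -0.18 and 0.14 (1 of 12 pairs above 0.1), so the letters were not taken as pairs.

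The members and lists were chosen with earlier results of these data known. Values on every array are given for the 5 regulators and for the called enzymes that rose most and those that fell most in each comparison with control, at most 5 of each. A list of 52 related genes is described by its counts and the 3 largest called changes per comparison. The 5 genes most like INSIG1 are those with the highest Pearson r.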

Additional observations from a re-analysis of the deposited data

Results flagged for a closer look

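In 2 of the 87 combinations of a gene and a group, 1 array stood apart from the other 3 by Dixon's test, beside a rate of about 1 in 20 from chance. HMGCS1 read 8.40 on Sharp1 array A, with the nearest Sharp1 array at 8.55, a gap of 0.874 of the group's range. MSMO1 read 10.90 on control array D, with the nearest control array at 10.98, a gap of 0.836 of the range. MSMO1 was called higher in Sharp1 under all 21 alternatives, and HMGCS1 was not called in Sharp1 under any of them.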

How the results depend on the processing

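Of the 17 genes called in Sharp1 against control, 10 kept their call under all 21 alternatives, as did 9 of 17 in shHIF against control and 13 of 20 in Sharp1 against shHIF. Among them, with 1 probe set each, were SCAP, ACAT2, TM7SF2, MSMO1 and AACS in Sharp1 and SCAP, INSIG2, AACS and STARD4 in shHIF. In Sharp1 against shHIF they were SCAP, INSIG2, ACAT2, FDPS, TM7SF2, MSMO1 and STARD4. For these, the mean of a gene's probe sets could not change the log2 values. INSIG1 stayed between -1.45 and -1.37 in Sharp1 and between -1.51 and -1.12 in shHIF. The mean of a gene's probe sets gave, in Sharp1, 5 genes higher instead of 9, all of them enzymes. In shHIF the same setting gave 4 genes higher instead of 8 and 5 lower instead of 9, and among enzymes 3 higher instead of 7 and 1 lower instead of 5. It reversed LSS (0.0594) and ELOVL6 (-0.0161) in shHIF and ACACA (-0.21) in Sharp1 against shHIF. Without the trend, 3 enzymes were lower in shHIF. Leaving out 1 array gave 3 to 6 lower enzymes in Sharp1 and 3 to 5 in shHIF. With the replicate block, 8 genes were higher and 9 lower in Sharp1, 8 and 8 in shHIF, and 10 and 10 in Sharp1 against shHIF. Without shHIF A and D, 8 genes were higher and 8 lower in shHIF, and with only those 2 arrays kept, an alternative chosen after seeing the data, 8 and 9. Without Sharp1 B, 7 genes were higher and 8 lower in Sharp1. PMVK was gained in 10 alternatives, FASN and STARD4 in 7 each and NSDHL in 1, all in Sharp1. The causes were not tested. Of the 62 probe sets, 5 averaged below the median probe set of 5.41, among them probe sets of SQLE, LSS and SC5D. Such dim probe sets read close to background and limit what a mean over probe sets shows. The opposed probe sets of ELOVL6 and ACACA, and the SCD probe sets not called in shHIF, averaged above that median.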

Other observations

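Beyond these genes, 52 listed genes of SREBP processing, the liver X receptor system and lipid handling were read, 47 of them measured. In Sharp1, 9 were higher and 19 lower than in control, with a median log2 change of -0.06, beside 15.3% and 11.8% of all genes tested. ACSL5, which activates long-chain fatty acids, was -1.19 in Sharp1 and 0.17 in shHIF, ME1, a cytosolic source of NADPH, -1.15 and -0.41, and SOAT1, which esterifies cholesterol, -1.06 and 0.43, all called by limma.

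In shHIF, 12 were higher and 12 lower, with a median of 0.01, beside 17.6% and 13.2% of all genes. RNF139, a membrane ubiquitin ligase of the endoplasmic reticulum, was -0.06 in Sharp1 (not called) and -1.22 in shHIF. ACSL1, another acyl-CoA synthetase, was -0.71 in shHIF, and PRKAA2, a catalytic subunit of the AMP-activated kinase, -0.56, and neither was called in Sharp1. In Sharp1 against shHIF, 13 were higher and 20 lower, beside 18.0% and 20.4% of all genes, with SOAT1 at -1.49, ACSL5 at -1.36 and RNF139 at 1.16. With the mean of a gene's probe sets, ME1 was -0.76 in Sharp1 and SOAT1 was not called in shHIF (0.07, limma adjusted p = 0.306), and ACSL5 was not called there without shHIF A and D (limma adjusted p = 0.065).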
